A study of Mus musculus with 7 samples.

Results

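Chemokines and their receptors were examined in the soleus, a slow postural muscle of the mouse hindlimb, in animals labelled as Yy1 knockout and in wild type animals. The members were every gene whose symbol starts with Ccl, Cxcl, Cx3cl, Ccr, Cxcr or Cx3cr followed by a digit and that had a probe set (a group of array probes for one transcript) naming that gene alone. This gave 47 of the 12393 genes measured, 31 of them ligands and 16 receptors, each represented by its brightest probe set, judged by the mean of all 7 arrays. The knockout group held 4 arrays and the wild type group 3, all from mice 6 months old on a mixed C57Bl/6 and 129 background. No source used here tells which part of Yy1 was removed, in which cells, or with which Cre driver. Nor do the labels say that each array came from a separate animal, so p-values may reflect technical spread only. Levels are log2(intensity + 1) throughout, and each difference is a log2 difference, knockout minus wild type.

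Chemokines are small secreted or membrane-anchored proteins that bind G-protein-coupled receptors on leukocytes and direct where those cells move. Ligands are grouped by the spacing of their first cysteines into CC, CXC and fractalkine types, and many bind more than one receptor. In injured skeletal muscle, CC ligands acting on Ccr2 are known to draw monocytes from the blood, and these become the macrophages that clear debris and assist repair.

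Yy1, the zinc-finger transcription factor named in the genotype, read 8.39, 8.24, 8.48 and 8.29 on the knockout arrays and 9.32, 9.20 and 9.62 on the wild type arrays. Every knockout array lay below every wild type array. The difference was -1.02 (SE 0.10, limma adjusted p = 0.000213), so that the knockout level was 49.2% of the wild type level. An exact two-sided permutation test over the 35 possible divisions of the arrays gave p = 0.0286, the smallest it can give.

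Of the 47 members, 12 were higher in knockout soleus, 2 were lower and 33 did not pass the test (limma, Benjamini-Hochberg adjusted p under 0.05 over all genes). The share called in either direction was 29.8% of members, beside 32.9% of all 12393 genes tested. Higher calls made up 25.5% of members, beside 17% of all genes, and lower calls 4.26%, beside 16%. The median difference was 0.13 over members and 0.01 over all genes. The knockout and wild type arrays did not overlap for 14 members, or 29.8%, beside 39.5% of all genes.

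Many members gave little signal. A gene counts here as near background when the mean of its higher group was at or below 5.83. That level is the 95th percentile of 67 olfactory, vomeronasal and taste receptor genes, taken here as little expressed in muscle. On that rule 23 members, or 48.9%, were near background, beside 26.3% of all genes. They were 13 of the 16 receptors but 10 of the 31 ligands. Ligands held 10 of the higher calls and both lower calls, and receptors held the 2 higher calls of Ccr1 and Cxcr4. In a bulk sample, fewer cells of a type and less RNA per cell cannot be told apart.

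**Figure D1:**
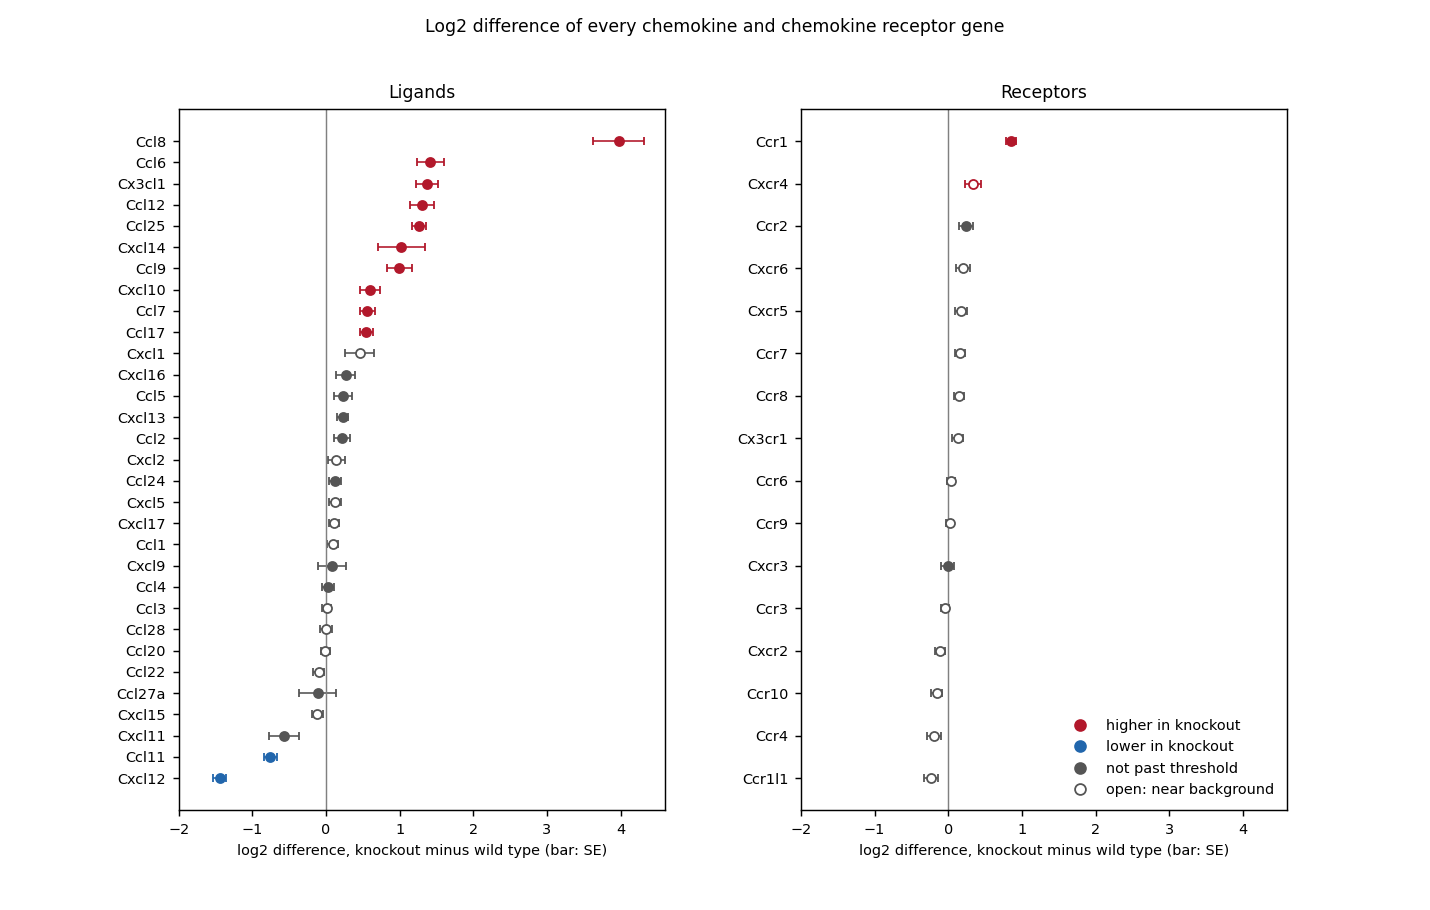
Log2 difference, knockout minus wild type, with its standard error as a bar, for the 31 ligands (left panel) and 16 receptors (right panel), sorted by size. Red points passed the test as higher and blue as lower, and open points are near background. Ccl8 lies farthest to the right at 3.97 and Cxcl12 farthest to the left at -1.45, and the open points lie between -0.23 and 0.46.

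Promoter sequences are shown for 5 called members that differ in chromosome neighbourhood and in direction: the neighbours Ccl8 and Ccl12, the interferon-inducible Cxcl10, Ccl17, and Cxcl12, which was lower. Each runs 5′ to 3′ on the gene's strand from 250 bases before to 50 bases after the start site, from RefSeq on GRCm38.p6. Capitals mark matches to the core promoter word TATAAA, to TGANTCA for AP-1, to TTCNNNGAA for STAT factors with a spacing of 3 bases, to the same STAT word with a spacing of 4 bases, and to the NF-kappaB and interferon-response words, all searched on both strands. Ccl8 and Ccl12 lie at chr11:82114935-82115234 and chr11:82101595-82101894, both on the plus strand.
Ccl8: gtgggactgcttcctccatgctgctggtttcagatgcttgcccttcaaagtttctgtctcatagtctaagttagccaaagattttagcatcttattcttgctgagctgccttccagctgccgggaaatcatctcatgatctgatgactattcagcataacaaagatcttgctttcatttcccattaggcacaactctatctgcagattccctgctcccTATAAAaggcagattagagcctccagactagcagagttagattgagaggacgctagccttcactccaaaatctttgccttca
Ccl12: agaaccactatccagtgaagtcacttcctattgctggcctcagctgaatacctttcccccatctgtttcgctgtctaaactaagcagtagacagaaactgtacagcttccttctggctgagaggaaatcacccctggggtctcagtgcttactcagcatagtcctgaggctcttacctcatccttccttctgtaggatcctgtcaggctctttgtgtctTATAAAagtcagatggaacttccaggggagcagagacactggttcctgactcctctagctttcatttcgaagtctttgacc
Cxcl10 lies at chr5:92348840-92349139 on the minus strand, Ccl17 at chr8:94810203-94810502 on the plus strand and Cxcl12 at chr6:117168285-117168584 on the plus strand.
Cxcl10: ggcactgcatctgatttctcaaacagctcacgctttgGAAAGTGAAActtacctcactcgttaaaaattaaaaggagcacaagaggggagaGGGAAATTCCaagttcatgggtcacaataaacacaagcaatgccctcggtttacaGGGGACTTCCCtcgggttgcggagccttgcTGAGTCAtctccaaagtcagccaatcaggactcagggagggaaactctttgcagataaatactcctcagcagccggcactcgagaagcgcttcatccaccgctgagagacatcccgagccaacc
Ccl17: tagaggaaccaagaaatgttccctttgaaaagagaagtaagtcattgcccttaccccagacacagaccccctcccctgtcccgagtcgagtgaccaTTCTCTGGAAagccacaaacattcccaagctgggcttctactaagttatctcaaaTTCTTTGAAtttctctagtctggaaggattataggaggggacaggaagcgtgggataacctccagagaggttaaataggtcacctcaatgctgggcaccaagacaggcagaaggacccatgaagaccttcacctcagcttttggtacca
Cxcl12: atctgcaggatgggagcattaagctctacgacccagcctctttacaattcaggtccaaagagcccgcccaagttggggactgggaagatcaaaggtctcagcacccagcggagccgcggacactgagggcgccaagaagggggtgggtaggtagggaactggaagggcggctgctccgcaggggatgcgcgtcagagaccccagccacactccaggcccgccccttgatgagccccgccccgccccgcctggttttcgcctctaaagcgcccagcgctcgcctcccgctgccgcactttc

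The TATAAA match began at base -32 from the start in Ccl8 and at base -31 in Ccl12. A global alignment of the 2 promoters, with gaps allowed, held 180 identical letters, or 60% of the promoter length of 300 bases. Among 561 pairs of promoters from the 34 members with an entry, the median identity was 52.3% and only Cxcl1 with Cxcl2 was higher, at 61.3%. TATAAA occurred in 13.6% of all 32851 promoters in the table and in 10 of the members' 38. In Cxcl10, NF-kappaB matches began at bases -159, -104 and -103, the last a pair overlapping each other on both strands, with AP-1 letters at base -74 and interferon-response letters at base -213. The NF-kappaB letters occurred in 17.4% of all promoters and in 12 of the members' 38, AP-1 in 7.81% and 8, and the interferon-response letters in 3.44% and 2. Ccl17 held the STAT letters at base -99 (spacing 3) and base -154 (spacing 4), which occurred in 8.30% and 6.95% of all promoters and in 4 and 1 of the members' 38. Cxcl12 held none of these letters in this window. A YY1 word, AANATGGC, was in none of the members' 38 promoters and in 6.05% of all promoters. Of the 14 called members 12 had an entry, and the other two, Ccl7 and Ccl11, are named only. A match of letters is a description of the sequence and not a measured binding site.

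The monocyte chemoattractant group, whose receptors include Ccr2, held the member with the largest difference of all 47. Ccl8, which in the mouse acts through Ccr8, read 10.02, 10.50, 10.95 and 9.62 on the knockout arrays, against 6.04, 5.90 and 6.96 on the wild type arrays. Knockout array 3 was highest and knockout array 4 lowest in the group, and the groups did not overlap. The difference was 3.97 (SE 0.34, adjusted p = 0.000113), a 15.7-fold higher intensity. Ccl12, a mouse ligand of Ccr2, read 6.30, 6.27, 6.01 and 5.60 in knockout and 4.91, 4.71 and 4.62 in wild type. All wild type arrays lay below the background level of 5.83, and so did knockout array 4. Every knockout array lay above every wild type array. Its difference was 1.30 (SE 0.16, adjusted p = 0.000539).

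Ccl7, another Ccr2 ligand, was higher by less. Its knockout values were 6.23, 6.43, 6.42 and 6.09, and its wild type values were 5.71, 5.61 and 5.87. The groups did not overlap, and the difference was 0.56 (SE 0.10, adjusted p = 0.00298). Ccl2, the best-known monocyte attractant acting on Ccr2, did not pass the test: it averaged 6.15 ± 0.18 in knockout (SD, n = 4) and 5.93 ± 0.14 in wild type (SD, n = 3), a difference of 0.21 (SE 0.11, adjusted p = 0.164 in limma). Of the 12 higher members, 5 had a wild type mean at or below the background level, namely Ccl7, Ccl12, Ccl25, Cxcl10 and Cxcr4.

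Ccl6 and Ccl9 are rodent CC ligands made by macrophages and other myeloid cells, and Ccr1 is a receptor of Ccl9. Ccl6 read 9.62, 9.78, 10.28 and 9.45 in knockout soleus and 8.17, 8.50 and 8.42 in wild type soleus. Ccl9 read 8.58, 8.90, 9.32 and 8.68 on knockout arrays and 7.68, 8.03 and 7.91 on wild type arrays. For both genes knockout array 3 was the highest of the 7 and the groups did not overlap. The difference was 1.42 for Ccl6 (SE 0.18, adjusted p = 0.000618) and 1.00 for Ccl9 (SE 0.17, adjusted p = 0.00248). Each had a second probe set, with a difference of 1.30 for Ccl6 (adjusted p = 7.12e-05 over all probe sets) and 1.12 for Ccl9 (adjusted p = 0.00238).

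Ccr1, expressed on monocytes and macrophages, had the smallest p of the receptors. It read 6.73, 6.75, 6.92 and 6.74 in the knockout group and 6.01, 5.93 and 5.86 in the wild type group. The groups were apart by more than the spread within either, and the difference was 0.85 (SE 0.07, adjusted p = 8.40e-05). Its second probe set was near background, with a difference of 0.05.

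**Figure D2:**
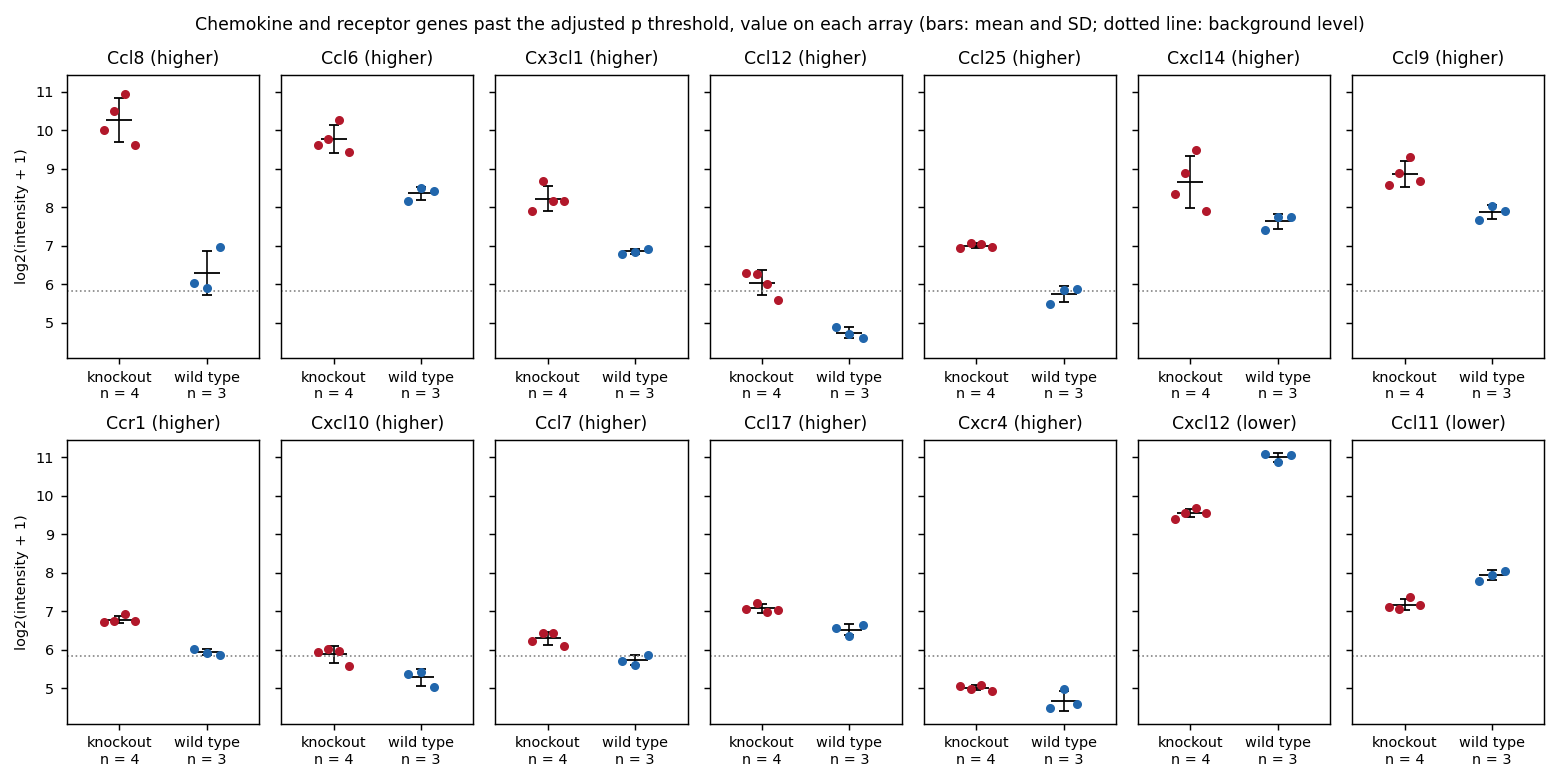
Log2(intensity + 1) on each array for the 14 members that passed the test, knockout left of wild type, with the mean and SD as bars and the background level of 5.83 as a dotted line. Ccl8 shows the widest gap, Cxcl12 and Ccl11 lie lower in knockout, and Cxcr4 lies below the dotted line with overlapping groups.

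Fractalkine, Cx3cl1, is anchored in the membrane of endothelial and other cells, where it holds cells that carry Cx3cr1. It read 7.92, 8.68, 8.17 and 8.16 in knockout soleus and 6.80, 6.85 and 6.93 in wild type soleus. Knockout array 2 was highest, no arrays overlapped, and the difference was 1.37 (SE 0.15, adjusted p = 0.000329). Its other probe sets gave a smaller difference of 0.29 (adjusted p = 0.0405 over all probe sets) and, near background, -0.04, and with the probe sets of each gene averaged Cx3cl1 was higher by 0.54 (adjusted p = 0.000863). Cx3cr1 itself was near background, at 5.55 in knockout and 5.43 in wild type.

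Ccl17 attracts cells bearing Ccr4 and is made by dendritic cells and macrophages. Its levels were 7.07, 7.22, 6.98 and 7.02 in knockout and 6.57, 6.37 and 6.64 in wild type. The lowest knockout array lay above the highest wild type array, with a difference of 0.55 (SE 0.09, adjusted p = 0.00153). Ccl22, which shares that receptor, and Ccr4 were both near background.

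Ccl25 guides developing and gut T cells through Ccr9. Intensities of 6.95, 7.07, 7.04 and 6.97 were measured in knockout, against 5.50, 5.86 and 5.88 in wild type. The knockout arrays lay within a narrow band above all wild type arrays, and the difference was 1.26 (SE 0.09, adjusted p = 6.75e-05). Ccr9 was near background in both groups, at 4.88 in knockout and 4.86 in wild type.

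Cxcl14 is a constitutively made ligand of epithelium and connective tissue. It read 8.36, 8.90, 9.48 and 7.91 in knockout soleus and 7.42, 7.76 and 7.75 in wild type soleus. Knockout array 3 was the highest and array 4 the lowest of its group, only just above the highest wild type array, so the groups did not overlap. The difference of 1.02 (SE 0.32, adjusted p = 0.0401) did not pass without knockout replicate 2 (0.94, adjusted p = 0.101), without knockout replicate 3 (0.75, adjusted p = 0.0529) or without wild type replicate 1, 2 or 3 (adjusted p from 0.0919 to 0.132). A second probe set gave 0.33 (adjusted p = 0.274), and with the probe sets of each gene averaged the difference was 0.68 (adjusted p = 0.0809).

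The ligands of Cxcr3, a receptor of activated T and NK cells, are induced by interferon. Cxcl10 read 5.95, 6.02, 5.98 and 5.57 in knockout and 5.38, 5.43 and 5.02 in wild type. Its knockout arrays lay just above and just below the background level and above all wild type arrays, with a difference of 0.60 (SE 0.14, adjusted p = 0.00974). Cxcl9 averaged 5.87 ± 0.32 in knockout (SD, n = 4) and 5.79 ± 0.29 in wild type (SD, n = 3), with limma adjusted p = 0.779. Cxcl11 averaged 7.46 ± 0.41 in knockout and 8.03 ± 0.19 in wild type, a difference of -0.57 (SE 0.21, adjusted p = 0.0671), and missed the threshold. Knockout array 1 read 8.05, inside the wild type range of 7.90 to 8.25. Cxcl11 passed as lower in 4 of 18 alternatives. Among these were leaving out knockout replicate 1 (-0.77, adjusted p = 0.0024), array quality weights (adjusted p = 0.0415) and testing only genes above the median (adjusted p = 0.048). Its second probe set was near background, with a difference of -0.08 (adjusted p = 0.349 over all probe sets). With the probe sets of each gene averaged, Cxcl11 did not pass (-0.32, adjusted p = 0.0554). Cxcr3 stood at 5.84 in both groups, barely above the background level.

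Cxcl12, or stromal-derived factor, is made by stromal and perivascular cells and holds cells that carry Cxcr4 in place. It read 9.40, 9.56, 9.69 and 9.56 on knockout arrays and 11.08, 10.86 and 11.05 on wild type arrays. All 4 knockout arrays lay more than the spread of either group below the wild type arrays. In this probe set the difference was -1.45 (SE 0.08, adjusted p = 3.51e-05), or 36.7% of the wild type intensity. A second probe set for Cxcl12, also above background, averaged 9.45 in knockout and 9.60 in wild type. Its groups overlapped, with a difference of -0.15 (limma adjusted p = 0.272 over all probe sets), so the lower call itself rests on the first set. With the probe sets of each gene averaged, the difference for Cxcl12 was -0.80 (adjusted p = 0.000183), an average that includes the first set.

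Cxcr4, the receptor of Cxcl12, was near background in every array. It read 5.05, 4.98, 5.09 and 4.93 in knockout and 4.48, 4.97 and 4.58 in wild type. Wild type array 2 lay inside the knockout range, and the difference was 0.34 (SE 0.11, adjusted p = 0.0491). The Cxcr4 call was lost in 11 of 16 alternatives, among them a pseudocount of 16 (adjusted p = 0.0641), quantile normalization (adjusted p = 0.0525), array quality weights (adjusted p = 0.0721) and all probe sets fitted (adjusted p = 0.0549). It was also lost without each of the 4 knockout replicates (adjusted p from 0.06998 to 0.109) and without wild type replicate 1 (0.24, adjusted p = 0.168) or 3 (0.29, adjusted p = 0.162). Ackr3, which takes Cxcl12 out of the extracellular space, is outside the symbol rule and was lower in knockout, with a difference of -0.61 (SE 0.09, adjusted p = 0.00124), at 9.74 in knockout and 10.35 in wild type.

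Ccl11, eotaxin, attracts eosinophils through Ccr3. Its values were 7.12, 7.05, 7.37 and 7.16 in the knockout group and 7.80, 7.94 and 8.06 in the wild type group. No knockout array reached the lowest wild type array, and the difference was -0.76 (SE 0.09, adjusted p = 0.000442), or 59.2% of the wild type intensity. Ccl24, a second eotaxin, averaged 7.24 ± 0.12 in knockout and 7.12 ± 0.11 in wild type, with adjusted p = 0.282. Ccr3 was near background.

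Ccr2, the receptor of Ccl2, Ccl7 and Ccl12, gave an answer that depended on the probe set. The set chosen by its mean level read 6.51, 6.45, 6.51 and 6.52 in knockout and 6.05, 6.20 and 6.51 in wild type. The groups overlapped through wild type array 3, and the difference was 0.24 (SE 0.10, adjusted p = 0.0956). Without wild type replicate 3 it was 0.37 (adjusted p = 0.00723). A second set read 7.09, 7.03, 6.67 and 6.46 in knockout and 5.19, 4.89 and 4.96 in wild type. There every knockout array lay above every wild type array, with a difference of 1.80 (SE 0.16, adjusted p = 0.000148 over all probe sets), but all 3 wild type arrays lay below the background level, so its size is uncertain. The remaining set was near background, with a difference of 0.37 (adjusted p = 0.0394). With the probe sets of each gene averaged, Ccr2 passed as higher by 0.81 (adjusted p = 0.000289).

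**Figure D3:**
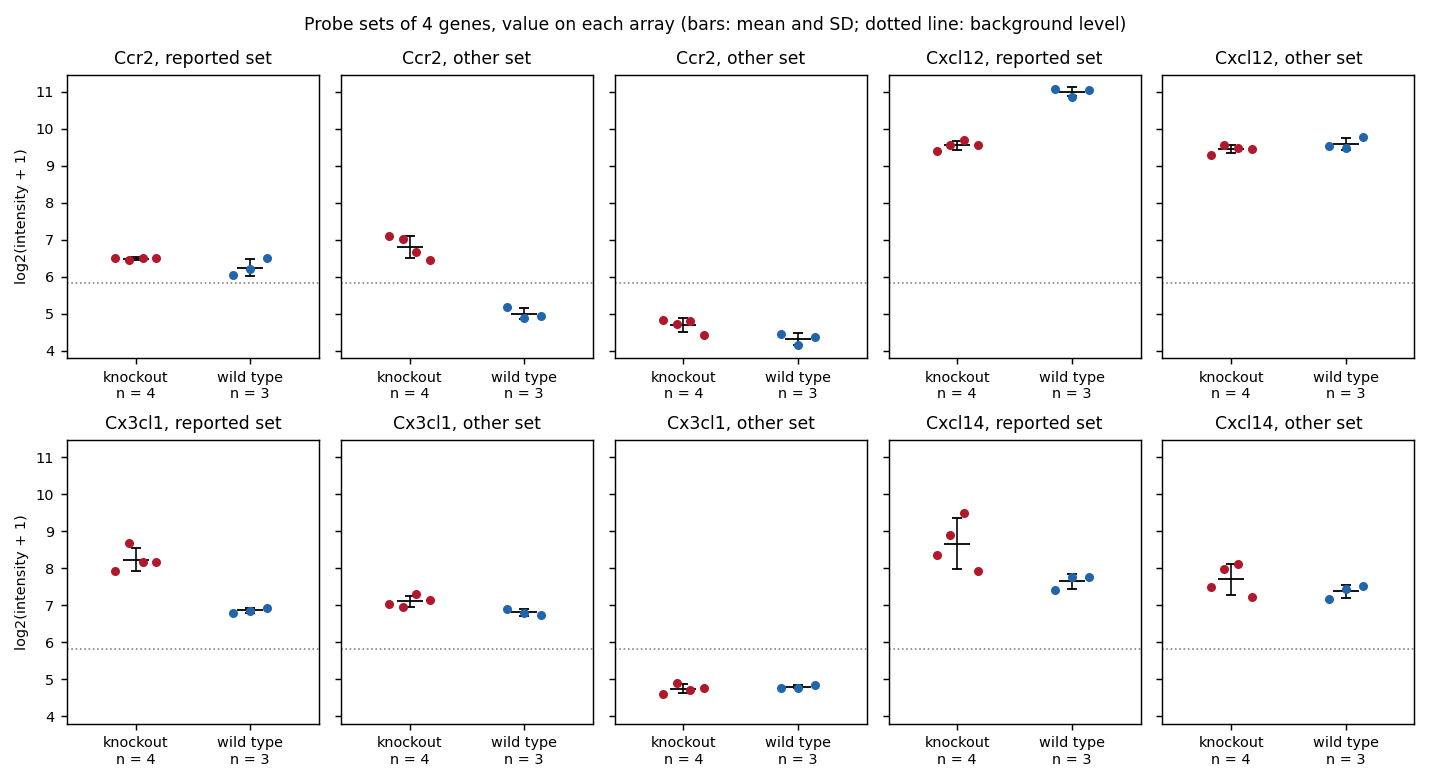
Log2(intensity + 1) on each array for every probe set of Ccr2, Cxcl12, Cx3cl1 and Cxcl14, knockout left of wild type, with the mean and SD as bars and the background level of 5.83 as a dotted line. The knockout and wild type arrays lie apart in the second set of Ccr2 and overlap in the second set of Cxcl12.

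Of the members above background, 11 did not pass the test, with differences from -0.57 (Cxcl11) to 0.27 (Cxcl16) and adjusted p from 0.0645 to 0.971. Cxcl13, the B cell attractant, averaged 6.21 ± 0.10 in knockout and 5.99 ± 0.12 in wild type (adjusted p = 0.0645). It passed as higher by 0.29 without wild type replicate 2 (adjusted p = 0.0372) and by 0.23 with arrays centred on their medians (adjusted p = 0.0456). With the probe sets of each gene averaged it passed by 0.33 (adjusted p = 0.0171). Its second probe set was near background, with a difference of 0.44 (adjusted p = 0.0303 over all probe sets) and groups that did not overlap. Cxcl16, a membrane-bound ligand of Cxcr6, averaged 8.06 ± 0.25 in knockout and 7.79 ± 0.11 in wild type (adjusted p = 0.155). Ccl5, a T cell and monocyte attractant, had groups that did not overlap, at 6.17 ± 0.24 in knockout and 5.94 ± 0.03 in wild type, yet missed the threshold at adjusted p = 0.183. Ccl4, at 5.98 in knockout and 5.96 in wild type, and Ccl27a, at 8.17 in knockout and 8.29 in wild type, had adjusted p of 0.835 and 0.762. The Ccl27a probe set is of a type that can also bind related transcripts. A p that misses the threshold does not show that the groups had the same level.

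The 22 uncalled members near background were the ligands Ccl1, Ccl3, Ccl20, Ccl22, Ccl28, Cxcl1, Cxcl2, Cxcl5, Cxcl15 and Cxcl17 and the receptors Ccr1l1, Ccr3, Ccr4, Ccr6, Ccr7, Ccr8, Ccr9, Ccr10, Cx3cr1, Cxcr2, Cxcr5 and Cxcr6. Their group means ran from 4.35 to 5.79, their differences from -0.23 to 0.46 and their adjusted p from 0.0848 to 0.995. Of the 23 members near background, 15 had exactly the same value on at least 2 arrays, against 5 of the 24 above it. The neutrophil attractants Cxcl1, Cxcl2 and Cxcl5 and their receptor Cxcr2 were all in this group, as was Ccr8, the receptor of Ccl8, at 4.88 in knockout and 4.73 in wild type.

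Several chemokine genes lie side by side in the genome, and their differences are given here in RefSeq order. This is a description, and no test between neighbours is reported here. On chromosome 11, Ccl2, Ccl7, Ccl11, Ccl12, Ccl8 and Ccl1 follow each other without another protein-coding gene between them, with differences of 0.21, 0.56, -0.76, 1.30, 3.97 and 0.09. Ccl11 was called lower while the genes on either side of it, Ccl7 and Ccl12, were called higher from wild type means at or below the background level. The other chromosome 11 run holds Ccl5, Ccl9, Ccl6, Ccl3 and Ccl4, with Ccl9 and Ccl6 called higher. On chromosome 8, Cx3cl1 and its neighbour Ccl17 were both called higher, and which of them differed more depended on the Cx3cl1 probe set: 1.37 in the set used and 0.29 in the other set above background, beside 0.55 for Ccl17.

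**Figure D4:**
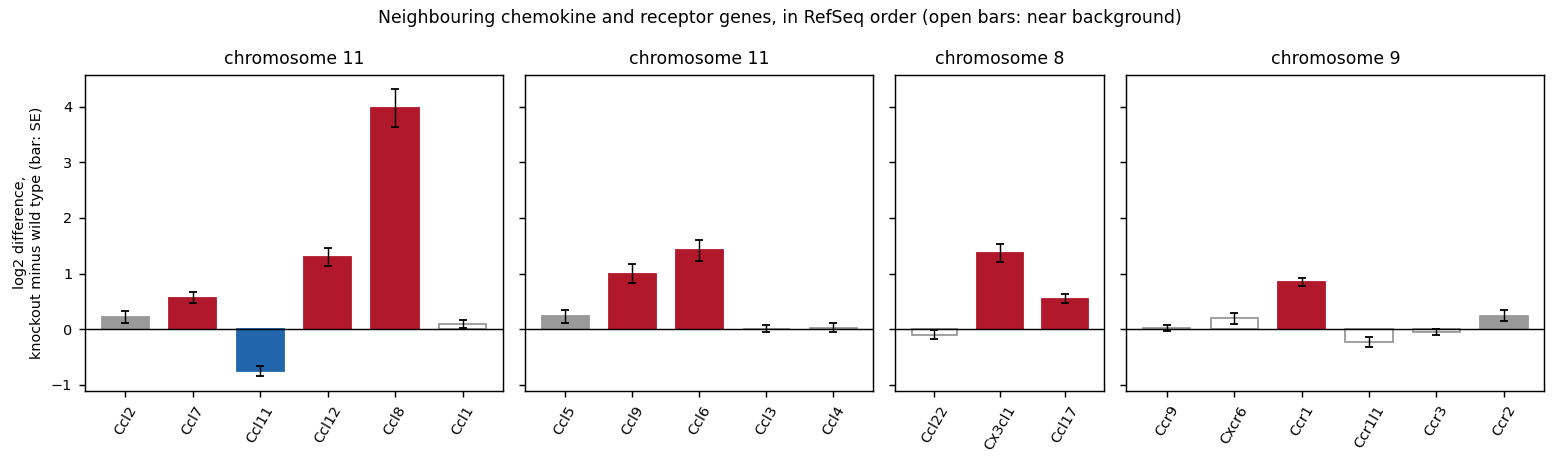
Log2 difference, knockout minus wild type (columns, with the standard error as a bar), of the measured genes along 4 runs of neighbours in RefSeq order. Red columns passed the test as higher, blue as lower, grey did not pass, and open columns are near background. Ccl11 lies below 0 between Ccl7 and Ccl12, which lie above it.

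The arrays of the knockout group differed among themselves in the higher members. Of those 12 genes, 11 were highest in knockout array 2 or 3, with 6 in array 3, and 7 were lowest in knockout array 4. The same count was not made over all genes, so it cannot be read as particular to these members. Beside the list counts from here on, 17% of all genes were called higher and 16% lower. All 19 measured macrophage and monocyte markers were higher in knockout, with a median difference of 1.19. Mpeg1 was higher by 2.52 (SE 0.17, adjusted p = 5.15e-05) and Cd68 by 2.05 (SE 0.13, adjusted p = 4.33e-05). The summed intensity of the 19 markers ran from 11105 to 17322 on the knockout arrays and from 4745 to 5504 on the wild type arrays. Knockout array 3 was the highest of all, and the lowest knockout array was array 1 (11105), not array 4 (11629). The sums are of linear intensity, so bright markers such as Lyz2 (knockout mean 11.93 in log2) weigh most in this order. The part of the macrophage marker difference in the change of the members was not tested.

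Of 9 dendritic cell markers, which include the member Ccr7, 3 were higher and 1 lower, with 3 near background. H2-Aa, a class II antigen-presenting gene that macrophages and B cells also express, was higher by 2.12 (SE 0.16, adjusted p = 6.27e-05). Zbtb46 was lower, with a difference of -0.29 (SE 0.07, adjusted p = 0.0116), a call lost with the probe sets of each gene averaged. None of 12 T cell, 7 B cell or 11 mast cell and eosinophil markers passed limma's test, and none of them had an unadjusted p under 0.05. Near background were 6 of the T cell, 4 of the B cell and 6 of the mast cell and eosinophil markers. Of 8 NK cell markers none passed, 2 had an unadjusted p under 0.05 and 7 were near background, and 1 passed as higher without knockout replicate 1 or wild type replicate 1 and 1 as lower without knockout replicate 1. Of 10 neutrophil markers 1 was higher and 1 was lower, with 7 near background. The higher call was lost without any single array but knockout replicate 4, and the lower call without any but wild type replicate 3.

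Endothelial markers moved the other way. Of 12 measured, 11 were lower in knockout, with a median difference of -0.97, and their summed intensity was 3729 to 4085 on knockout arrays against 7241 to 7670 on wild type arrays. Cdh5, the endothelial cadherin, was lower, with a difference of -1.04 (SE 0.08, adjusted p = 6.01e-05). Of 9 pericyte and smooth muscle markers 6 were lower and 1 was higher, with Kcnj8, a potassium channel subunit of pericytes, at a difference of -1.64 (SE 0.08, adjusted p = 2.88e-05). Of 11 fibroblast markers 9 were higher, 4 without wild type replicate 1 and 5 without wild type replicate 2. In their reported probe sets Cxcl12 was lower and Cx3cl1 higher on the same arrays. The part of the endothelial, pericyte or fibroblast differences in these genes was not tested. All 11 muscle fibre markers, which define the labelled tissue, were above background. Of these, 5 were higher and 3 lower, with 2 higher without wild type replicate 2 and 3 higher without knockout replicate 2 or wild type replicate 3.

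**Figure D5:**
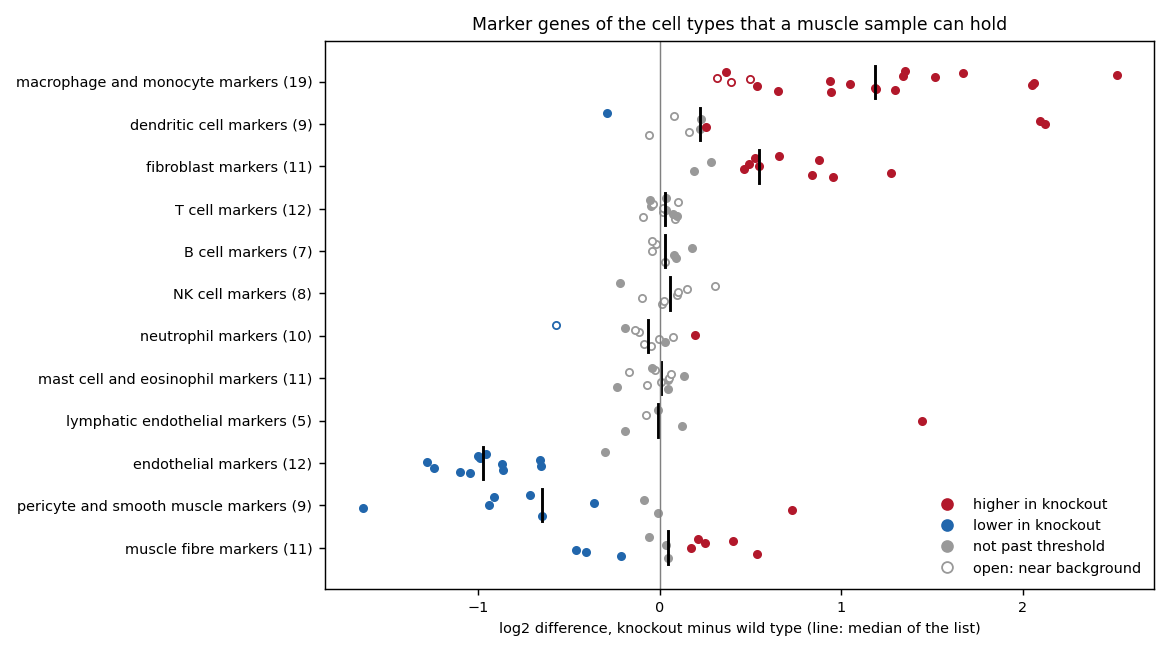
Log2 difference, knockout minus wild type, of each marker gene (points) in 12 cell type lists, with the list's median as a vertical line and the number of genes in brackets. Red points passed the test as higher and blue as lower, and open points are near background. All 19 macrophage points lie above 0 (median 1.19) and all 12 endothelial points below it (median -0.97).

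Of 12 atypical receptors and related ligands outside the symbol rule, 2 were higher and 4 were lower, beside 17% and 16% of all genes, with a median difference of -0.01. The higher count was 1 without wild type replicate 2, and the lower count was 2 without knockout replicate 4 or wild type replicate 1. Pf4, a platelet CXC ligand that macrophages also make, was higher by 0.84 (SE 0.14, adjusted p = 0.00195). Ccrl2, an atypical receptor that binds chemerin, was lower, with a difference of -0.80 (SE 0.07, adjusted p = 0.000115). Ackr1, an atypical receptor of venular endothelium, averaged 8.04 in knockout and 8.13 in wild type (adjusted p = 0.517).

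Of 19 genes that carry the receptors' signal into the cell, 4 were higher and 4 lower, shares near the 17% and 16% of all genes, with a median difference of 0.08. The higher count was 1 without knockout replicate 2, 3 or 4 or wild type replicate 2, and 2 without wild type replicate 1 or 3. The lower count was 1 without wild type replicate 2, and 2 without knockout replicate 1 or 3 or wild type replicate 1 or 3. The beta-arrestins, which switch off and internalise receptors, differed in direction. Arrb2 was higher by 0.96 (SE 0.08, adjusted p = 0.000113), and Arrb1 was lower, with a difference of -0.45 (SE 0.14, adjusted p = 0.0336), a call lost without knockout replicate 1, 3 or 4 or wild type replicate 2 or 3 (adjusted p from 0.0691 to 0.0845). Rgs2, which shortens G-protein signalling, was lower, with a difference of -0.91 (SE 0.13, adjusted p = 0.00119).

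Cytokine pathways known to induce these ligands were read from the same fit, in which 17% of all genes were higher and 16% lower. Of 12 genes of the IL-4 and IL-13 axis, which induces Ccl17 among others, 6 were higher and none lower, with a median difference of 0.43: Mgl2, a macrophage lectin, by 1.63 (SE 0.09, adjusted p = 2.93e-05), Mrc1, the mannose receptor, by 1.32 (SE 0.14, adjusted p = 0.000284), and Stat6, the factor that acts downstream of these cytokines, by 0.89 (SE 0.09, adjusted p = 0.00018). The other 6 genes of this axis were not called. Among these, Il4, Chil3 and Arg1 were near background, and Retnla had a difference of 0.25 (SE 0.32, adjusted p = 0.588). Of 20 inflammatory cytokine and NF-kappaB genes 8 were higher and none lower, with a median difference of 0.12, and 5 were higher without knockout replicate 2 or without wild type replicate 3. Relb, an NF-kappaB subunit, was higher by 1.13 (SE 0.16, adjusted p = 0.000933), while Tnf stood at 6.55 in knockout and 6.62 in wild type (adjusted p = 0.474). Of 9 interferon gamma genes 1 was higher and 2 were lower, counts near those shares of all genes, with a median difference of -0.03. The higher count was 0 without any single array but knockout replicate 1, and the lower count was 4 without wild type replicate 1 and 1 without any other single array. The lower ones included Ifngr2, a receptor subunit, at -0.46 (SE 0.10, adjusted p = 0.00971), and Ifng itself was near background. Mgl2 and Mrc1, and Clec10a and Cd163 among the other higher genes of that axis, are also macrophage genes. The part of the macrophage marker difference in these counts was not tested.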

How the data were processed

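Total RNA from soleus was labelled with biotin and hybridised to 1-colour Affymetrix arrays, 4 knockout and 3 wild type, per the labels. The authors deposited linear intensity values, 1 for each probe set on each array. RMA is named per the submitters' processing notes, and no source used here gives its software or probe annotation. Array medians were 139 to 143, the number of arrays limits the precision, and no pair of arrays shared more than 1819 of 22690 probe set values.

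Of these probe sets 20380 had 1 gene symbol in the platform annotation, 691 several and 1555 none, and 64 control sets were left out; 12369 of 12393 symbols matched RefSeq. The intensity was taken as log2(value + 1), since the values were linear, and 1 probe set per gene (the highest mean over the 7 arrays) was fitted for all genes with limma 3.58.1 (lmFit, eBayes) in R 4.3.3, with Benjamini-Hochberg adjustment and a threshold of 0.05. The fit was tested on simulated data. Yy1 also had an exact two-sided permutation test. The members and lists were chosen with earlier results of these data known.

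Every member is named: called members with all arrays, uncalled members above background with means, the others by range. Of each list, up to 3 genes in each direction with the smallest p could be named. A few other genes (Ackr1, Arrb1, Tnf, Ifng, Il4, Chil3, Arg1, Retnla, Clec10a and Cd163) were named after their values were seen. The 18 alternatives covered the pseudocount, filters, scaling, probe set choice, variance model, a replicate block and leaving out each array.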

Additional observations from a re-analysis of the deposited data

Results flagged for a closer look

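Each gene's highest or lowest knockout array was set against the other 3 for the 47 members and Yy1. In 10 of the 48 genes its gap to the nearest of the others, as a share of the range, passed Dixon's critical value. For continuous normal values chance passes it in about 1 in 20 groups. Exact ties break that condition, and the share over all genes was not computed, so the count cannot be read as an excess in the members. In 4 of the 10 genes knockout array 3 stood above the other knockout arrays and the gene was above background. Ccl2 read 6.41 there against 6.05 to 6.07 on the others, Ccl5 6.53 against 6.05 to 6.06, Ccl24 7.42 against 7.18 to 7.19, and Ccr1 6.92 against 6.73 to 6.75. Cxcl10 was low on knockout array 4, at 5.57 against 5.95 to 6.02. The other five were near background: Ccl1 on array 2 (5.65 against 5.60), Ccr3 on array 2 (4.57 against 4.58), Ccr8 on array 1 (5.02 against 4.83), Ccr10 on array 4 (4.94 against 5.07 to 5.09) and Cxcr6 on array 3 (5.05 against 4.93 to 4.95). In Ccl1, Ccr3 and Ccr8 the other 3 arrays held one identical value, so the gap was the whole range whatever its size.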

How the results depend on the processing

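No alternative reversed a called member. The count of higher members was 12 and was 10 to 12 with 1 array left out; the lower count was 2 and was 2 to 4, reaching 4 without knockout replicate 1. With only genes above the median of all genes tested, 8 members remained to test and 4 were higher. Leaving out 1 array gave 1592 to 2036 genes higher and 1579 to 1926 lower of 12393. The replicate block gave 11 members higher and 3 lower, and 1625 genes higher and 1599 lower of all; under it Cxcl11 passed as lower (-0.44, adjusted p = 0.0212) and Cxcr4 did not pass (adjusted p = 0.0818). Same-numbered knockout and wild type arrays did not deviate together (correlations 0.03, -0.13 and 0.02), and not every array correlated best with its own number, so the numbers were not taken to pair samples. Among uncalled members the sign turned for Cxcr3 with arrays centred on their medians (0.0035, against -0.01), and with 1 array left out the difference ran from -0.062 to 0.0588 for Cxcr3, -0.0762 to 0.2367 for Cxcl9, -0.0664 to 0.0942 for Ccl4 and -0.3077 to 0.0711 for Ccl27a. The cause of these moves was not tested. Array number and signal over background limit the precision, with 23 of 47 members near background.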

Other observations

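A few probe sets of chemokine genes name several genes at once and so were outside the rule. The set shared by the Ccl21 genes, lymphatic ligands of Ccr7, averaged 8.85 in knockout and 8.61 in wild type (difference 0.24, limma adjusted p = 0.409 over all probe sets). Those shared by Ccl27a, Ccl27b and related genes averaged 8.62 and 8.38 in knockout and 8.75 and 8.64 in wild type, with adjusted p of 0.720 and 0.526. The Ccl19 set was near background, at 5.31 in knockout and 5.30 in wild type. Of 5 lymphatic endothelial markers 1 was higher in knockout, beside 17% of all genes. Of 4 blood cell markers 1 was lower, beside 16% of all genes, with 3 near background. The lower call was lost without knockout replicate 2 or wild type replicate 1 or 3.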
